A study of Mus musculus with 3 samples.

Results

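Calprotectin and stefin A are described here through 6 of the 19091 genes listed in the count files, namely S100a8, S100a9, Stfa1, Stfa2, Stfa2l1 and Gm5483. The 6 genes were chosen from their measured levels in these same libraries, so their differences between libraries and cell classes are given as descriptions and without a test. All 6 were listed in each of the 3 files.

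The study followed repair of mouse liver wounds made by irreversible electroporation (IRE), in which short electric pulses kill cells, and profiled the tissue by Drop-seq, a droplet method that captures the 3' end of each transcript with a molecular identifier (UMI). One library came from control livers, one from livers 1 day after IRE and one from livers 7 days after IRE, all of adult mice whose strain the labels give as C57BL/6. IRE consisted of 8 pulses of 50 ms at intervals of 1 s, with 75 V given in the labels and a lower voltage in the methods, and punches of 4 mm were digested to single cells with lysis of red cells. The label of the control speaks of sham surgery and tissue taken at day 1, whereas the methods speak of the matching area of uninjured livers. According to the methods each library pooled 3 livers, so that each condition was 1 library, no difference between conditions has a replicate check, and all intervals below are 95% intervals that cover counting error only.

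S100a8 and S100a9 encode the 2 subunits of calprotectin, a calcium- and zinc-binding protein that fills much of the cytosol of neutrophils, is also made by classical monocytes, and, once released, restricts metal ions for microbes and acts on Toll-like receptor 4 as an alarm signal. Stefin A proteins are small cytosolic inhibitors of cysteine cathepsins, and in the mouse they are encoded by a cluster of closely related genes that myeloid cells, neutrophils above all, transcribe. Neutrophils are rare in resting liver and enter it after injury.

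The genes of each family lie together, S100a8 and S100a9 on chromosome 3 and the stefin A genes on chromosome 16. Stretches of 120 bases that end at the annotated transcription start are shown because they make visible which members resemble each other. They were taken from the RefSeq promoter table (GRCm38.p6), in which 5 members matched by symbol and Gm5483 by its RefSeq synonym Cstdc4. For S100a9 the stretch ends 6 bases past the annotated start, since the letters TATAAA begin at that start. Capitals mark TATAAA in the calprotectin genes and the longest run of letters shared by all 4 stefin A genes in the others.
S100a8, chr3:90668951-90669070, plus strand: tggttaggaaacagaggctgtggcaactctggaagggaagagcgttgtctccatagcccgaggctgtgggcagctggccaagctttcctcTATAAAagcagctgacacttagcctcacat
S100a9, chr3:90695716-90695835, minus strand: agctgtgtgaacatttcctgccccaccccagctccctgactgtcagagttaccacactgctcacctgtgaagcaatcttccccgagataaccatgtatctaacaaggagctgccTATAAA
Stfa1, chr16:36277028-36277147, plus strand: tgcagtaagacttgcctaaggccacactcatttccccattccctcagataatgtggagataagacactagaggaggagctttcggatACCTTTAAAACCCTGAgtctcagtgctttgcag
Stfa2, chr16:36408364-36408483, minus strand: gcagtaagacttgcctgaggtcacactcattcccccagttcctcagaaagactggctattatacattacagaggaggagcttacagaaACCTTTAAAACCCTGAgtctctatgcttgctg
Stfa2l1, chr16:36156691-36156810, plus strand: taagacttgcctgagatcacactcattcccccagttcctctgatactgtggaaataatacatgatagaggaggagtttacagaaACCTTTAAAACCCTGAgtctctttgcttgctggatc
Gm5483, chr16:36184092-36184211, plus strand: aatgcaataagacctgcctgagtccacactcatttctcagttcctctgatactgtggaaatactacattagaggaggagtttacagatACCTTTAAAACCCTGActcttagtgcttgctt

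The run ACCTTTAAAACCCTGA, 16 bases long, began 33 bases before the start of Stfa1, 32 before Stfa2 and Gm5483 and 36 before Stfa2l1. It was found in 6 of 32851 promoter windows of 300 bases (0.0183%), those of the 4 members and of 2 further genes, Cstdc3 and Gm7260, and it was singled out after the sequences had been seen. TATAAA on the sense strand occurred in the windows of S100a8 and S100a9 and in 8.32% of all windows. TTGCNNAA, a core of C/EBP sites, occurred on either strand in the windows of S100a9 and Stfa1 (10.8% of all windows), and GAGGAAG, letters bound by PU.1, in those of S100a8, Stfa1 and Gm5483 (13.6% of all windows). Over the 250 bases before the start the stefin A genes were 69.9% to 89.4% identical in pairs, with Stfa2 and Stfa2l1 the closest, whereas S100a8 and S100a9 were 48.1% identical.

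The likeness of the stefin A genes also bears on how well their UMIs can be told apart. Of the 60-base windows in the last 300 bases of the reference transcript, 24.9% of those of Stfa1 occurred unchanged in BC100530 or BC117090, 17.4% of those of Stfa2 in Stfa2l1, 17.0% of those of Stfa2l1 in Stfa2, and 31.1% of those of Gm5483 in 2010005H15Rik. None of the windows of S100a8 or S100a9 occurred in another gene. The authors counted only reads with a mapping quality of at least 10, which discards reads that match several places equally, so the split between stefin A genes is less certain than their sum, and how many reads were lost was not tested.

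Cells were barcodes with at least 200 detected genes, 10386 in the control, 9253 at 1 day and 5624 at 7 days, with 456.5 to 595 UMIs per cell at the median. Levels are given as UMIs per 1000000 UMIs of the cells in question (CPM), which count transcript ends and do not scale with gene length. Mitochondrial genes held 20.5% of UMIs in the control and 21.7% at 1 day but 4.10% at 7 days. Some barcodes occurred as cells in more than 1 library, 68 in the control and the 1 day library, 44 in the control and the 7 day library and 149 in the 1 day and 7 day libraries. Without them the calprotectin sum relative to control was 0.162 at 1 day and 10.4 at 7 days over all cells, against 0.159 and 10.4 with them, and the stefin A sum was 0.270 and 25.7, against 0.255 and 25.4. In the neutrophil-gated cells described further on, leaving them out moved the 7 day ratio from 1.11 to 1.12 for calprotectin and from 2.52 to 2.56 for stefin A.

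Over all cells, both calprotectin genes and all 4 stefin A genes were lowest 1 day after IRE and highest after 7 days. S100a8 stood at 1829.7 CPM in the control, 287.5 CPM at 1 day and 19867 CPM at 7 days, and S100a9 at 1561, 250.7 and 15435 CPM. Together the 2 genes took 0.339% of all UMIs in control cells, 0.0538% at 1 day and 3.53% at 7 days. Relative to control the calprotectin sum was thus 0.159-fold at 1 day (0.153 to 0.165) and 10.4-fold at 7 days (10.3 to 10.6). In bulk sums of this kind, fewer cells of a type and less RNA per cell cannot be told apart, which is why the cell classes are described further on.

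The stefin A genes were far rarer and followed the same order of libraries. Gm5483, the most abundant, had 18.1 CPM in the control, 5.40 CPM at 1 day and 651 CPM at 7 days. Stfa2l1 had 15.3, 4.26 and 273 CPM in the same order. Both were therefore detectable in every library, with 33 UMIs of Gm5483 and 26 of Stfa2l1 in the sparsest one.

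Stfa1 and Stfa2 were at the limit of detection 1 day after IRE. Stfa1 had 34 UMIs in the control (4.24 CPM), 1 UMI at 1 day and 110 UMIs at 7 days (36.0 CPM). Stfa2 had 12 UMIs in the control (1.50 CPM), 1 at 1 day and 108 at 7 days (35.3 CPM). Summed over the 4 genes, stefin A stood at 0.255-fold of control at 1 day (0.190 to 0.336) and at 25.4-fold at 7 days (22.6 to 28.6), so that its interval lay wholly above that of calprotectin at both times.

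The ratio 7 days over control was unequal among the members, 8.48 for Stfa1 (5.72 to 12.8), 9.89 for S100a9 (9.70 to 10.1), 10.9 for S100a8 (10.7 to 11.1), 17.8 for Stfa2l1 (14.7 to 21.7), 23.6 for Stfa2 (13 to 47.0) and 36.0 for Gm5483 (30.4 to 42.9). Stfa1 overlapped both calprotectin genes within counting error, and Stfa2 overlapped Stfa2l1 and Gm5483. Among the genes with at least 50 UMIs over both libraries, an interval wholly past 2-fold was taken as a call. At 1 day 4 members had enough UMIs and all 4 were called lower, where 3.21% of 11357 genes were called lower and 8.11% higher. At 7 days all 6 were called higher, where 5.91% of 10227 genes were called higher and 11.5% lower. These contrasts served to choose the genes, and nothing is read from the counts. The median log2 ratio of the members that had enough UMIs was -2.24 at 1 day and 3.80 at 7 days, against 0.04 and -0.21 over all genes.

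**Figure D1:**
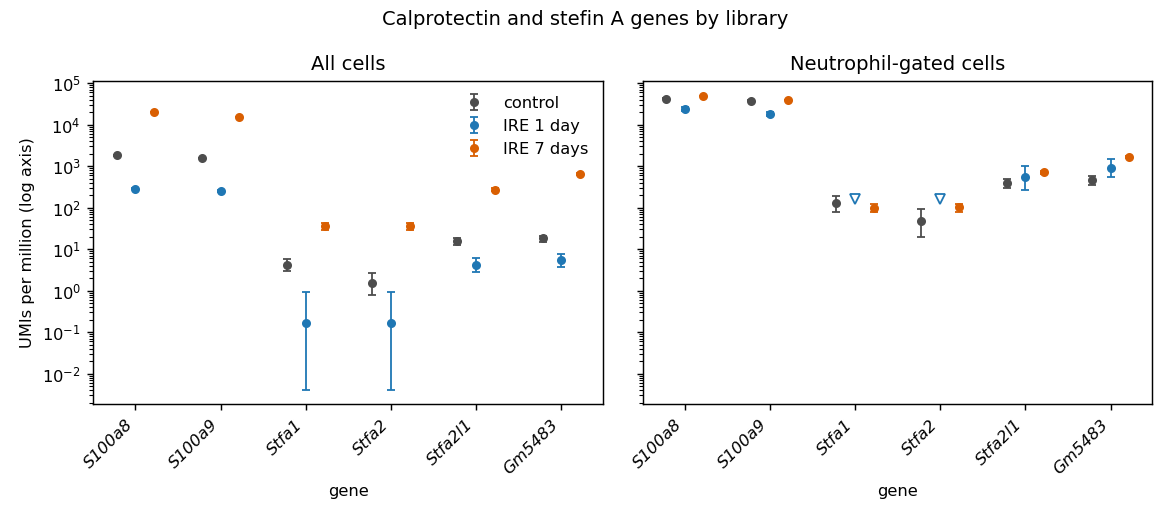
CPM (log axis) of the 6 genes in the control, 1 day and 7 day libraries, over all cells on the left and over neutrophil-gated cells on the right. Points are 1 library each, bars are 95% counting intervals, and open triangles mark the level that 3 counts would give for a gene with 0 UMIs. Over all cells the 7 day points lie highest for each gene, whereas in neutrophil-gated cells S100a8 spans only 23593 to 49162 CPM.

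Cells were then assigned to the class of which they had most markers detected, at least 2 and more than of any other class, without use of the 6 genes. Neutrophils (Csf3r, Cxcr2, Retnlg, Mmp8 and 10 further markers) numbered 244 in the control, 31 at 1 day and 1611 at 7 days, which was 2.35%, 0.335% and 28.6% of cells. Of their 14 markers 13, 11 and 14 were detected in these cells. Further classes were monocytes, macrophages expressing wound-associated genes such as Arg1 and Spp1, Kupffer cells, endothelial cells and lymphocytes, while 1437 to 3114 cells per library stayed unassigned. Classical monocytes made up 15.7%, 1.12% and 19.3% of cells. Wound macrophages, named for their markers only, made up 7.51%, 0.627% and 20.2% (780, 58 and 1134 cells). Neutrophils and both of these classes thus held a smaller share at 1 day than in the control. The paper, by contrast, reports from staining that Ly6G-positive cells gathered in wounds at day 1. The reason for this difference was not tested. T, NK and B cells, which do not normally transcribe these genes, served together as the measure of free RNA in the droplets (884, 308 and 120 cells). The 14 neutrophil markers summed to 209, 136 and 2661 CPM in these lymphocytes. In neutrophil-gated cells they summed to 16367, 8554 and 21106 CPM. With at least 3 markers the neutrophil gate held 188, 17 and 1325 cells. How many cells passed the gate through free RNA was not tested.

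Neutrophil-gated cells held 50.5% of all calprotectin UMIs of cells in the control, 23.1% at 1 day and 67.4% at 7 days. Their share of the stefin A UMIs was 55.4%, 44.3% and 68.8%. Unassigned cells held 16.7%, 25.2% and 13.4% of calprotectin UMIs, and endothelial cells, 43.2% of all cells at 1 day, held 28.6% there. Neutrophil-gated cells thus carried most of both sums in the control and at 7 days, and less than 50% of each at 1 day.

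Per UMI of neutrophil-gated cells, calprotectin differed far less between libraries than over all cells. S100a8 stood at 42129.6 CPM in the control (41164 to 43112), 23593 CPM at 1 day (21423 to 25923) and 49162 CPM at 7 days (48684 to 49644). S100a9 stood at 37845 CPM in the control (36931 to 38777), 17763 CPM at 1 day (15887 to 19800) and 39401 CPM at 7 days (38973 to 39833). None of these intervals overlap between the control and the 1 day library, and the 1 day library was the lowest for both genes.

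The calprotectin sum in neutrophil-gated cells was 0.517-fold of control at 1 day (0.480 to 0.556) and 1.11-fold at 7 days (1.09 to 1.13). The 7 day difference changed direction with the scale, to 0.855-fold with mitochondrial UMIs left out of the denominator and to 0.95-fold with the lymphocyte level of each library subtracted. Mitochondrial genes held 27.0% of the UMIs of neutrophil-gated cells in the control and 5.44% at 7 days. The 1 day value remained between 0.378 and 0.551 under the alternatives tried. It rests on 31 cells with 18353 UMIs, in which the 14 neutrophil markers were also lower (8554 CPM against 16367 CPM in the control) and 12 hepatocyte markers were higher (18199 CPM against 2249.9 CPM), and the part of these shifts in the calprotectin value was not tested.

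Single neutrophil-gated cells varied widely within each library. Calprotectin took 7.07% of the UMIs of a cell at the median in the control, with the middle 50% of cells between 3.40% and 12.5%. At 1 day the median was 2.11% (middle 50% of cells 1.02% to 6.08%) and at 7 days 7.49% (2.95% to 13.6%). The highest cell reached 29.9% in the control, 16.4% at 1 day and 33.7% at 7 days, and 16, 3 and 9 cells had no calprotectin UMI. The distributions of the control and the 7 day library covered nearly the same range, and that of the 1 day library lay lower but overlapped both.

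**Figure D2:**
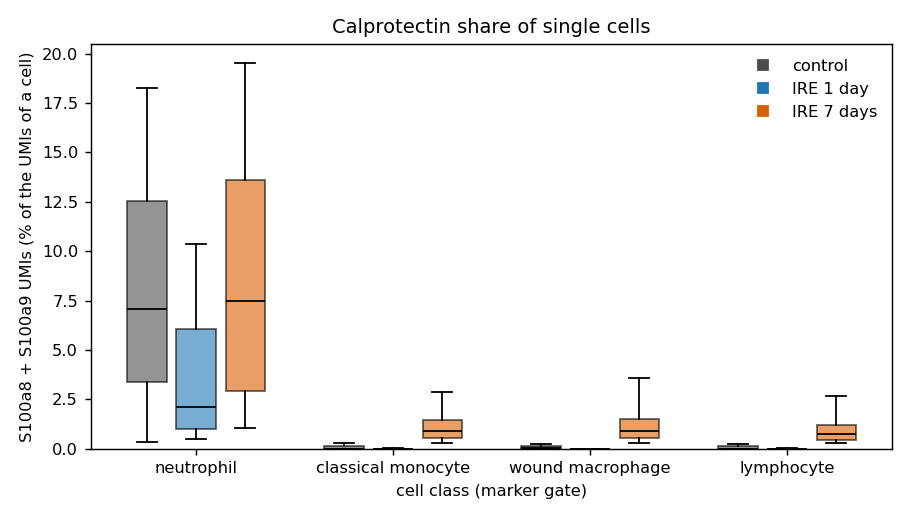
S100a8 and S100a9 UMIs as a percentage of the UMIs of each cell, by marker-gated class and library. Boxes span the quartiles with the median as a line, and whiskers reach the 10th and 90th percentiles over cells of 1 library. The medians of neutrophil-gated cells were 7.07%, 2.11% and 7.49%, whereas at 7 days lymphocytes, monocytes and macrophages all had medians between 0.739% and 0.909%.

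The stefin A sum behaved differently from calprotectin in the neutrophil gate. It stood at 1014 CPM in the control (869 to 1177), 1471 CPM at 1 day (969 to 2140) and 2551 CPM at 7 days (2443 to 2663). The 7 day level was 2.52-fold of control (2.15 to 2.95), and between 1.86- and 3.50-fold under the alternatives tried. In the same cells the 8 wound macrophage markers summed to 944 CPM in the control (7 detected) and 6656 CPM at 7 days (8 detected), and the 8 classical monocyte markers to 1667 and 2316 CPM (7 detected in each). The part of these transcripts in the 7 day values of neutrophil-gated cells was not tested, other than that stefin A was 2.84-fold without cells that had 2 markers of a second class. At 1 day the ratio was 1.45 (0.929 to 2.18), an interval that includes no difference, and 25 of the 27 stefin A UMIs came from 3 cells.

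Gm5483 contributed most to the higher sum. In neutrophil-gated cells it had 455 CPM in the control (359 to 567), 926 CPM at 1 day (540 to 1483) and 1643 CPM at 7 days (1557 to 1733), which was 3.61-fold of control at 7 days (2.88 to 4.60). Stfa2l1 was 1.84-fold of control at 7 days (1.42 to 2.41), with 385, 545 and 707 CPM in the 3 libraries. Stfa2 was 2.17-fold (1.05 to 5.18), with 8 UMIs in the control and 83 at 7 days. Stfa1 had 128 CPM in the control and 99.8 CPM at 7 days, a ratio of 0.778 with an interval from 0.481 to 1.31 that includes no difference.

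Neither Stfa1 nor Stfa2 was detected in the 31 cells at 1 day, where 0 UMIs, taken as 3 counts, allow a level of up to 163 CPM, above the control level of both genes. The interval of 1 member, Gm5483, lay wholly above 2-fold at 7 days, where 7.36% of 2581 genes did and 1.01% lay below 0.5-fold. At 1 day none of the 4 members with enough UMIs passed in either direction, where 1.49% of 402 genes were called higher and 0.498% lower. The median log2 ratio of the members with enough UMIs in neutrophil-gated cells was 0.55 at 7 days, beside 0.41 over all genes.

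The make-up of stefin A shifted towards Gm5483 accordingly. Gm5483 made up 44.8% of the stefin A UMIs of neutrophil-gated cells in the control (37.3% to 52.5%) and 64.4% at 7 days (62.3% to 66.5%). Stfa2l1 held 37.9% in the control (30.7% to 45.6%) and 27.7% at 7 days (25.8% to 29.7%). Stfa1 held 12.6% (8.10% to 18.5%) and 3.91% (3.12% to 4.83%). Stfa2 held 4.60% and 3.96%, within counting error of each other. Over all cells the share of Gm5483 was 46.2% in the control and 65.4% at 7 days. In lymphocytes, the measure of free RNA, Gm5483 had 7 of 16 stefin A UMIs in the control and 17 of 21 at 7 days. The shift was thus not particular to neutrophil-gated cells, and the part of free RNA in it was not tested. Since 31.1% of the terminal windows of Gm5483 are shared with 2010005H15Rik, part of its reads could be assigned elsewhere or discarded, and the effect on the split was not tested.

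**Figure D3:**
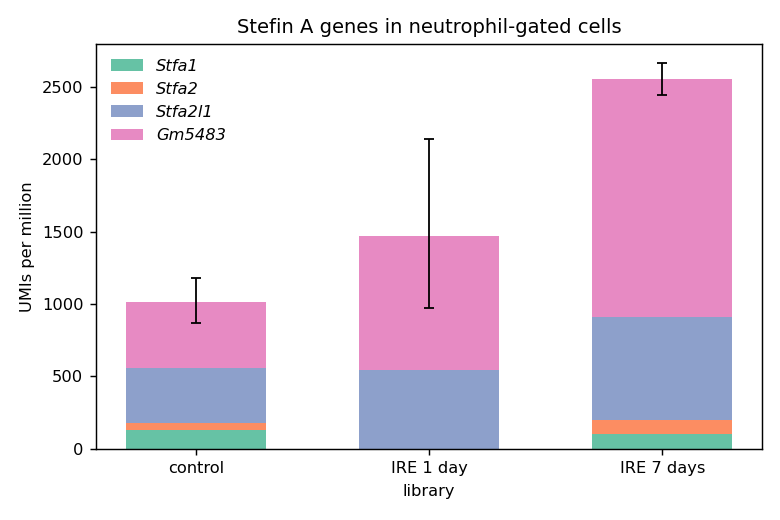
CPM of the 4 stefin A genes, stacked, in neutrophil-gated cells of each library (linear axis from 0). Black bars are 95% counting intervals of the sum, which was 1014, 1471 and 2551 CPM, and the Gm5483 segment is the largest in each library.

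Calprotectin and stefin A were therefore not in a fixed proportion. In neutrophil-gated cells there were 12.7 stefin A UMIs per 1000 calprotectin UMIs in the control (10.9 to 14.7), 35.6 at 1 day (23.3 to 52.2) and 28.8 at 7 days (27.6 to 30.1). The 1 day value rests on 3 cells that held most of its stefin A UMIs. Without cells with Camp, Ltf or Ngp, an alternative chosen after seeing the data, the proportions were 15 (12.7 to 17.5), 7.81 (2.12 to 20.1, 4 stefin A UMIs) and 30.6 (29.1 to 32.1), so the 1 day value no longer exceeded control. Barcodes below 200 genes had 14.3, 21.0 and 29.8. At 7 days monocytes (23.3), wound macrophages (29.1), Kupffer cells (29.6) and lymphocytes (26.4) had proportions near that of neutrophils, and of these only the monocyte interval (20.2 to 26.7) left out the neutrophil value.

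Within the neutrophil gate, cells with a UMI of Camp, Ltf or Ngp, genes of secondary granules that are transcribed before neutrophils leave the bone marrow, had the most calprotectin. Their calprotectin sum was 130413 CPM in the control (30 cells), 100122 CPM at 1 day (3 cells) and 150223 CPM at 7 days (194 cells). Cells with none of the subgroup genes had 69599, 35503 and 67040 CPM. In each library the interval of the granule-gene cells lay wholly above that of the cells without these genes.

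Stefin A did not follow one order of subgroups in all libraries. Granule-gene cells had 626 CPM of stefin A in the control (351 to 1033) and 3473 CPM at 7 days (3143 to 3829), while cells with none of the subgroup genes had 917 CPM (741 to 1123) and 1523 CPM (1329 to 1738). At 1 day 23 of 27 stefin A UMIs lay in the 3 granule-gene cells, and without such cells the stefin A sum at 1 day was 0.234-fold of control (0.0629 to 0.610) in place of 1.45-fold. Cells with Ifit1, Ifit3, Isg15 or Rsad2, genes induced by interferon, had 1412 CPM in the control and 2421 CPM at 7 days. Cells with a UMI of Cxcl3 or Ccl4, chemokine genes, made up 5.74% of neutrophil-gated cells in the control and 63.3% at 7 days, and had 1063 and 2939 CPM of stefin A. Of lymphocytes 5.20% had a UMI of these chemokine genes in the control and 28.3% at 7 days (20.5% to 37.3%), so the control share of neutrophil-gated cells was at that background. For the interferon-induced genes the lymphocyte share was 8.26% and 27.5%, beside 23.4% and 36.9% of neutrophil-gated cells, and for the granule genes 1.58% and 4.17%, beside 12.3% and 12.0%. Cells can belong to more than 1 of these subgroups. At 1 day the 5 cells with an interferon-induced gene also held 23 of the 27 stefin A UMIs. So did the 8 cells with Cxcl3 or Ccl4, and these UMIs cannot be tied to 1 subgroup.

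Outside neutrophils, levels have to be read against lymphocytes of the same library. Lymphocytes had 1207 CPM of calprotectin in the control (1123 to 1295), 355 CPM at 1 day (271 to 457) and 13739 CPM at 7 days (12800.3 to 14728). Neutrophil-gated cells stood 66.3-fold above them in the control (61.6 to 71.3), 116-fold at 1 day (89.4 to 154) and 6.45-fold at 7 days (6.01 to 6.92). Without shared barcodes the control ratio was 78.3. In the control 1 of the 884 lymphocytes held 123 of their 774 calprotectin UMIs, so control ratios to lymphocytes rest in part on 1 cell. At 7 days 93.3% of lymphocytes had at least 1 calprotectin UMI, against 39.6% in the control and 10.4% at 1 day, at median depths of 421 to 579 UMIs. Thinned to 300 UMIs per cell, with 19, 9 and 7 shallower cells left out, the shares were 90.8%, 21.4% and 6.29%. The share of neutrophil-gated cells with a UMI at 7 days, 99.4%, was thus near that background and says little by itself.

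Classical monocytes exceeded the lymphocyte level in 2 of the 3 libraries. Their calprotectin sum was 2199 CPM in the control, 1.82-fold of lymphocytes (1.68 to 1.98), and 1765 CPM at 1 day, 4.97-fold (3.61 to 6.91). At 7 days it was 13876 CPM, 1.01-fold of lymphocytes (0.939 to 1.09). At 1 day 98 of the 115 UMIs came from 1 of 104 cells, so that this excess rests on few cells. In the control 988 of 1628 monocytes had no calprotectin UMI and 1 cell held 273 of their 2428, while 534 of 884 lymphocytes had none. How far the control excess rests on few cells was not tested. For S100a8 alone the 7 day ratio to lymphocytes was 1.11 (1.00 to 1.22) and for S100a9 0.893 (0.80 to 0.998).

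Wound macrophages and Kupffer cells had calprotectin levels between 0.564- and 1.21-fold of the lymphocyte background. Wound macrophages had 953 CPM of calprotectin in the control (0.790-fold of lymphocytes), 200.4 CPM at 1 day (0.564-fold, 0.233 to 1.18) and 14491 CPM at 7 days (1.05-fold, 0.981 to 1.14). The 1 day value rests on 58 cells, in which the hepatocyte markers summed to 69200 CPM, beside 31954 CPM over all cells of that library. In control wound macrophages these markers summed to 5298 CPM. Kupffer cells, the resident macrophages of liver sinusoids, had 1456, 324 and 10011 CPM, which was 1.21-, 0.911- and 0.729-fold of lymphocytes. At 7 days all classes of at least 50 cells other than neutrophils lay between 10011 and 14491 CPM, apart from unassigned cells with 19876 CPM. Between 7 days and control the calprotectin ratio was 6.31 in monocytes, 6.88 in Kupffer cells and 15.2 in wound macrophages, beside 11.4 in lymphocytes (10.3 to 12.6), so the same direction was measured in a class that served as background.

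For stefin A, no other named class of at least 50 cells had a ratio to lymphocytes with an interval wholly above 1 in the control or at 7 days. In the control lymphocytes had 24.9 CPM (14.3 to 40.5), monocytes 16.3, wound macrophages 7.56, Kupffer cells 19.2 and dendritic cells 41.8 CPM on 3 UMIs. At 7 days lymphocytes had 363 CPM (225 to 555), monocytes 323, wound macrophages 421, Kupffer cells 296 and endothelial cells 490.1 CPM. At 1 day 0 of 308 lymphocytes had a stefin A UMI, at a median of 467 UMIs per cell. Taken as 3 counts, this allows up to 0.974% of cells with a UMI and does not limit how many express the genes. Neutrophil-gated cells stood 40.7-fold above lymphocytes in the control (24.3 to 72.7) and 7.03-fold at 7 days (4.59 to 11.4).

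**Figure D4:**
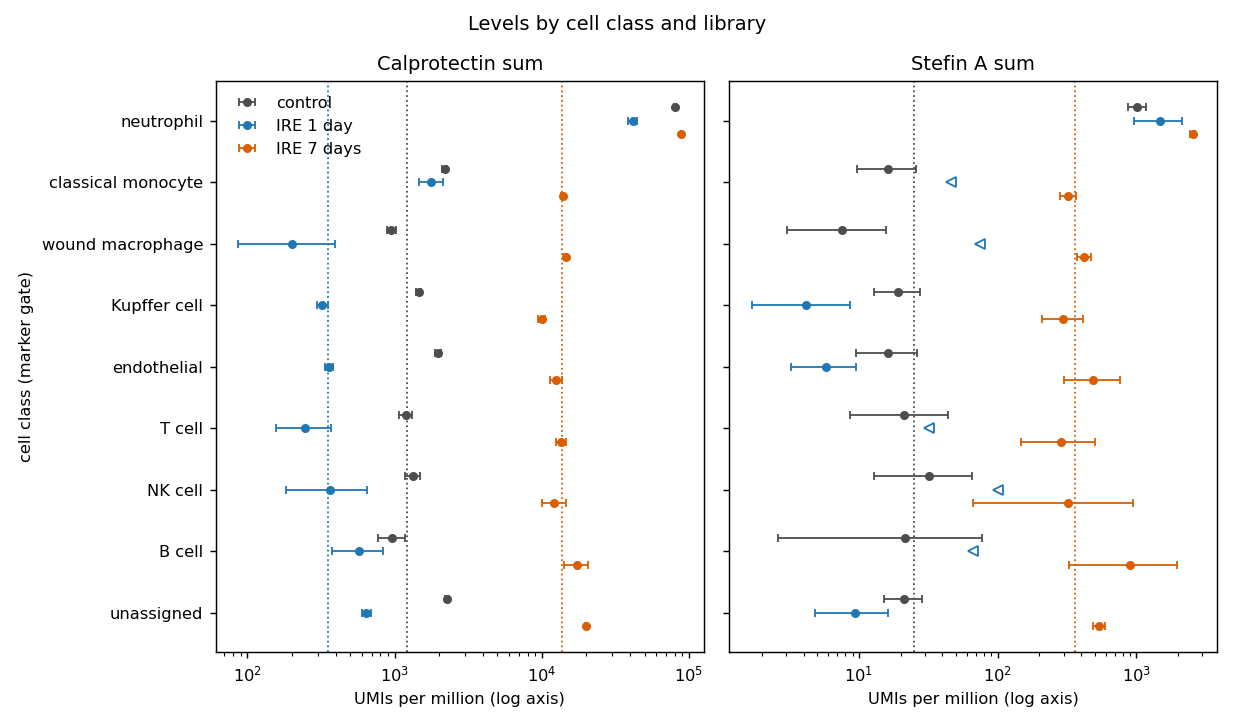
CPM (log axis) of the calprotectin sum on the left and the stefin A sum on the right, by marker-gated cell class, with 95% counting intervals. Colours are the libraries, dotted lines mark the level in lymphocytes of the library of that colour, and open triangles mark the level that 3 counts would give for classes with 0 UMIs. The 7 day named classes other than neutrophils lie around the lymphocyte line at 13739 CPM for calprotectin and 363 CPM for stefin A, while unassigned cells lie above the calprotectin line.

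The ratio of S100a8 to S100a9 also differed between classes. In neutrophil-gated cells it was 1.11 in the control (1.08 to 1.15), 1.33 at 1 day (1.15 to 1.54) and 1.25 at 7 days (1.23 to 1.27). In classical monocytes it was 1.40 (1.29 to 1.52), 1.45 (0.983 to 2.15) and 1.52 (1.46 to 1.59). Wound macrophages had 1.33 in the control (1.16 to 1.52) and 1.39 at 7 days (1.33 to 1.44). In the control and at 7 days the intervals of monocytes and of macrophages thus lay above those of neutrophils without overlap.

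Lymphocytes, endothelial cells, Kupffer cells and the sparsest barcodes were closer to neutrophils. Lymphocytes had 1.08 in the control (0.931 to 1.24) and 1.23 at 7 days (1.06 to 1.41), endothelial cells 1.14 (1.05 to 1.25) and 1.17 (0.976 to 1.39), and Kupffer cells 1.22 (1.12 to 1.33) and 1.24 (1.10 to 1.39). Barcodes below 200 genes had 1.15, 1.18 and 1.24. Unassigned cells had 1.24 in the control (1.17 to 1.31) and 1.31 at 7 days (1.27 to 1.36), higher than neutrophils. At 7 days monocytes thus had the lymphocyte level of calprotectin but a higher proportion of S100a8, with an interval above that of lymphocytes (1.06 to 1.41). The wound macrophage intervals overlapped those of lymphocytes both in the control and at 7 days.

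**Figure D5:**
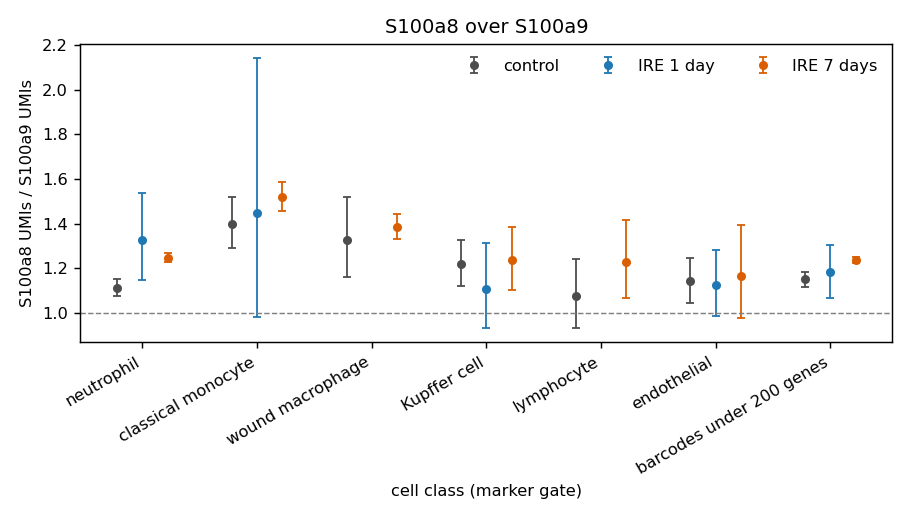
S100a8 UMIs divided by S100a9 UMIs (linear axis) by marker-gated class and library, for sums of at least 100 UMIs, with 95% counting intervals and a dashed line at equal counts. Classical monocytes at 7 days (1.52) and wound macrophages at 7 days (1.39) lie above neutrophils (1.25) and barcodes under 200 genes (1.24).

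Of 14 other S100 genes, which encode calcium-binding proteins of the same family, 12 were in the files and 7 had enough UMIs over all cells, and 0 were called higher and 2 lower at 1 day, 3 higher and 1 lower at 7 days. S100a4 was 0.157-fold of control at 1 day and 2.48-fold at 7 days, S100a6 0.125- and 3.63-fold, and S100a11 0.472- and 6.33-fold. By contrast S100a16 was 2.17-fold at 1 day (1.93 to 2.43) and 0.361-fold at 7 days (0.275 to 0.467), when it was called lower. The median log2 ratio of this list was -0.69 at 1 day and 1.03 at 7 days, against 0.04 and -0.21 over all genes. Of all genes with enough UMIs, 8.11% were called higher and 3.21% lower at 1 day, and 5.91% and 11.5% at 7 days. In neutrophil-gated cells 0 of 5 were called at 7 days, with S100a11 at 2.10-fold (1.84 to 2.40) and S100a6 at 1.32-fold (1.20 to 1.45). Of all genes with enough UMIs in these cells, 7.36% were called higher and 1.01% lower at 7 days, and 1.49% and 0.498% at 1 day. These shares over all genes also stand beside the counts of the lists that follow.

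Among 10 other stefin A cluster and cystatin genes, 9 were in the files, 5 had enough UMIs at 7 days and 3 were called higher over all cells. These were 2010005H15Rik, a stefin A cluster gene with 178 UMIs at 7 days and 1 UMI in the control, BC100530 (10.1-fold, 6.27 to 17.0) and Cstb, which encodes stefin B, an inhibitor of the same cathepsins (5.36-fold, 5.14 to 5.59). In neutrophil-gated cells 2 of 4 were called higher, 2010005H15Rik with 76 UMIs against 0, and Cstb. Cstb was 6.78-fold of control (5.06 to 9.30), with 268 CPM in the control and 1817 CPM at 7 days. By contrast Cst3, which encodes the secreted cystatin C, was 0.555-fold there (0.496 to 0.623). BC100530 was 0.654-fold there (0.359 to 1.26). Cstb also stood at 126 CPM in lymphocytes of the control and 501 CPM at 7 days, and at 1304 and 3463 CPM in wound macrophages, whose markers were higher in the neutrophil gate at 7 days as well. Their part in the Cstb ratio was not tested. At 1 day 3 genes of this list had enough UMIs over all cells and 1, Cstb, was called lower (0.419-fold), and in neutrophil-gated cells 0 of 2 were called.

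Over all cells at 7 days the cathepsins that stefins inhibit differed less from control than the 6 members. Of 8 genes, 2 were called lower over all cells at 1 day, Ctsk (0.0793-fold) and Ctss (0.431-fold). At 7 days 0 were called, with a median log2 ratio of 0.12, against -0.21 over all genes. In neutrophil-gated cells 0 of 6 were called at 7 days and 0 of 3 at 1 day. Ctsb, one of the main lysosomal cysteine proteases, was 1.51-fold of control there at 7 days (1.31 to 1.74) and Ctss 0.954-fold (0.824 to 1.11).

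Among receptors and partners of calprotectin Cd14 stood out. Of 8 genes, 7 had enough UMIs over all cells, and 3 were called higher at 7 days, Cd14, the co-receptor of Toll-like receptor 4 (27.3-fold, 24.9 to 30.0), Cd33, a myeloid lectin (11.4-fold, 8.79 to 14.9), and Tlr4 itself (3.94-fold, 3.25 to 4.78), while 0 of 7 were called at 1 day. In neutrophil-gated cells 2 of 6 were called higher at 7 days, Cd14 (22.9-fold, 134 CPM in the control and 3072 CPM at 7 days) and Bsg, which encodes the surface protein basigin (3.70-fold, 2.20 to 6.71). Neutrophil-gated cells held 23 of the 500 Cd14 UMIs of cells in the control and 2525 of 5215 at 7 days. Wound macrophage markers were also higher in the neutrophil gate at 7 days. The part of such transcripts and of free RNA in the Cd14 and Bsg ratios was not tested.

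Profiles most like those of the 2 sums were sought over the 24 sums of a named class in a library with at least 50 cells and 20000 UMIs, among 6966 genes without members and gate markers. For calprotectin the 5 highest Pearson correlations were those of Irg1 (r = 0.96), Ifitm1 (0.93), Il1f9 (0.93), Arg2 (0.91) and Nfkbiz (0.91). For stefin A they were Il1f9 (0.96), Mxd1 (0.95), Ifitm1 (0.95), Arg2 (0.95) and Irg1 (0.92). The sums share libraries, depth and free RNA, so these values describe the 3 libraries only. Ifitm1, a membrane protein gene induced by interferon, had 1376 CPM in neutrophil-gated cells of the control, 545 CPM at 1 day and 2243 CPM at 7 days, and Il1f9, which encodes an interleukin 1 family cytokine, had 181, 163 and 505 CPM. The 1 day value of Il1f9 is the level that 3 counts give in these 31 cells, too sparse to compare with the control.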

How the data were processed

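Cells from 3 pooled mouse livers per condition were profiled by Drop-seq in 1 library per condition, grouped by the sample titles. The authors deposited UMI counts per gene and barcode, made with the Drop-seq tools at a mapping quality of at least 10 and a UMI edit distance of 1, per the file headers. The submitters' processing notes name STAR 2.5.2a and the human build hg19, although the rows are mouse symbols, and no coordinates were taken from the files. The headers give a minimum of 200 genes per barcode, but the deposited tables reach down to 11 genes, so barcodes with at least 200 genes were taken as cells (8013800, 6107866 and 3058967 UMIs in the control, 1 day and 7 day libraries).

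Levels were computed as UMIs per 1000000 UMIs. Poisson intervals were used for levels, Clopper-Pearson intervals for shares and conditional binomial intervals for ratios, all at 95%. PCR copies were collapsed by UMI, and intervals and floors (3 counts) cover counting error only. Conditions were not tested against each other, since none had a second library. Cells were assigned by marker lists, hepatocytes first where their genes held at least 20% of UMIs. No doublet caller was run, and cells with 2 markers of a second class were left out as an alternative. Other alternatives changed the cell filter, the mitochondrial UMIs, the number of markers and the background, and 2 were chosen after seeing the data. Genes named were the 6 members, up to 4 genes of each of 4 lists with their values, and the 5 genes most like each sum by Pearson r of log2 (CPM + 10), among genes with at least 200 UMIs. The members and lists were chosen with earlier results of these data known. Promoters came from RefSeq (GRCm38.p6) and transcripts from the reference annotation, whose build was not compared with that of the files. Proteins were not used here. Scripts ran in Python 3.11.15 with numpy 2.4.6, scipy 1.17.1 and matplotlib 3.10.9 and were tested on simulated data.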

Additional observations from a re-analysis of the deposited data

Results flagged for a closer look

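Over all cells both sums pointed in opposite directions at the 2 times after IRE, and in neutrophil-gated cells only calprotectin did. Over all cells calprotectin was 0.159-fold of control at 1 day and 10.4-fold at 7 days, and stefin A was 0.255-fold and 25.4-fold. In neutrophil-gated cells calprotectin was 0.517-fold at 1 day and 1.11-fold at 7 days, the latter with a direction that depends on the scale. Stefin A was 1.45-fold there at 1 day, with an interval that includes no difference, and 2.52-fold at 7 days. The ratios share 1 control library, and the difference between the times was not tested.

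Barcodes with fewer than 200 genes, which enter no comparison of levels between conditions above, held calprotectin at 80809.8 CPM and stefin A at 2405 CPM at 7 days. In the control the same kind of barcode had 8333 and 119 CPM. The 7 day values are near those of neutrophil-gated cells of that library (88563.5 and 2551 CPM). Over every deposited barcode the neutrophil gate held 572 barcodes in the control, 61 at 1 day and 4954 at 7 days. With at least 200 genes it held 244, 31 and 1611. Whether the barcodes below 200 genes are cells was not tested.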

How the results depend on the processing

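Over 25 results and 117 alternatives, 64 alternatives moved the value by less than its counting interval, 51 moved it farther and 2 reversed it, and 101 of 105 alternatives of ratios kept the direction. Besides these 2, stefin A in neutrophil-gated cells at 1 day crossed to below control, from 1.45 to 0 and to 0.234, under the 2 cell exclusions given further on. Values follow as control, 1 day and 7 days or as 1 day and 7 days over control, and the cause of each shift was not tested. Leaving out mitochondrial UMIs reversed the 7 day ratio of calprotectin in neutrophil-gated cells to 0.855 and subtracting the lymphocyte level reversed it to 0.95. Without mitochondrial UMIs the 7 day ratio over all cells was 8.64 for calprotectin and 21.1 for stefin A, and 1.94 for stefin A in neutrophil-gated cells. With every deposited barcode, calprotectin was 0.129 and 11.5 over all cells, 0.410 at 1 day in neutrophil-gated cells, and 83.7 (control) and 7.65 (7 days) relative to lymphocytes.

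With at least 500 genes per cell, calprotectin was 0.168 and 9.02 and stefin A 0.410 and 20.4 over all cells. In the neutrophil gate, which then held 2 cells at 1 day, they were 0.378 and 1.07 for calprotectin and 5.37 and 1.86 for stefin A. Relative to lymphocytes, calprotectin was 29.2 in the control and 4.15 at 7 days, and stefin A 16.2 and 2.13. With at most 20% mitochondrial UMIs, calprotectin was 0.132 and 11.6 and stefin A 34.3 (7 days) over all cells. In the neutrophil gate calprotectin was 1.27 at 7 days and stefin A 2.42 and 3.50. Relative to lymphocytes calprotectin was 46.0 in the control and 61.3 at 1 day, and stefin A 22.0 in the control.

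With at least 1 marker, calprotectin in neutrophil-gated cells was 1.21 at 7 days, and 61.5 relative to lymphocytes in the control. With at least 3 markers it was 1.04 at 7 days. Without cells with 2 markers of a second class it was 0.431 and 1.26, and 96.2, 198 and 9.18 relative to lymphocytes. Stefin A was then 0 at 1 day (19 cells), and 111 (control) and 11.9 (7 days) relative to lymphocytes. Of the alternatives chosen after seeing the data, leaving out shared barcodes gave 78.3 for calprotectin relative to lymphocytes in the control. Leaving out neutrophil-gated cells with Camp, Ltf or Ngp gave 0.449 for calprotectin and 0.234 for stefin A at 1 day, and 59.5 (control) and 5.70 (7 days) for calprotectin relative to lymphocytes.

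Thinned to 300 UMIs, the share of lymphocytes with a calprotectin UMI was 21.4% in the control and 6.29% at 1 day, and that of neutrophil-gated cells 98.9% at 7 days. For stefin A it was 21.4% in the control and 34.6% at 7 days in neutrophil-gated cells, and 0.428% in control lymphocytes. No paired analysis was possible because each condition was 1 library, and for the same reason no replicate could be left out. The 1 day neutrophil values rest on 31 cells, and stefin A there on 27 UMIs.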
